A study of Mus musculus with 12 samples.

Results

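The endothelial genes and angiogenic factors described here were 10 genes of the 34509 on the array. They comprised the junction and surface genes Pecam1, Cdh5 and Emcn, the receptors Kdr, Flt1, Tek and Tie1, and the secreted factors Vegfa, Angpt1 and Angpt2. The genes were chosen with earlier results of these data known, and their probes were then taken by gene symbol alone. Every probe carrying one of these symbols was taken, which gave 16 of 46632 probes. Expression was measured on 12 Illumina Sentrix Mouse bead arrays hybridised with RNA from femoral head cartilage explants of 21-day-old TS-4/5∆cat mice. All groups, untreated controls included, came from mice that lack the catalytic activity of ADAMTS-4 and ADAMTS-5, the principal aggrecan-cleaving proteinases of cartilage. Explants were left untreated, treated with 10 ng/mL IL-1α, an inflammatory cytokine that drives loss of cartilage matrix, or treated with 10 µM retinoic acid, a vitamin A metabolite that also drives it, for 3 days. Each treatment had 4 arrays, 2 in batch 1 (the Donut line) and 2 in batch 2 (the Gertrude line), so that batch and mouse line cannot be told apart. The labels give 4 hips per well and the methods 3 unpooled mice per treatment, which does not settle which arrays came from separate animals. The p-values therefore measure the spread between these arrays, which may be technical in part.

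Endothelial cells line blood vessels. PECAM-1 and VE-cadherin (Cdh5) hold neighbouring endothelial cells together, and endomucin (Emcn) is a sialomucin of capillary and venous endothelium. Vessel growth is directed by VEGF-A, which signals through VEGFR-2 (Kdr) and is held back by the decoy receptor VEGFR-1 (Flt1), and by the angiopoietins, which act on the receptor Tie2 (Tek) in concert with the related receptor Tie1. Angiopoietin-1 stabilises vessels through Tie2, and angiopoietin-2, released largely by endothelium itself, counters it in many settings. Articular cartilage has no vessels, but the cartilage of the femoral head is entered by vessels when its secondary ossification centre forms, and hypertrophic chondrocytes secrete VEGF-A there.

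The 12 arrays detected between 13786 and 19485 probes each. Correlations were 0.983 to 0.995 between arrays sharing treatment and batch, and 0.868 to 0.902 between arrays sharing treatment alone. A probe was tested when its detection p was below 0.05 on at least 4 arrays, and 12 of the 16 probes and all 10 genes passed in this way. The second probes of Kdr, Flt1 and Angpt1 were detected on 0 arrays, and the second probe of Emcn was detected on 3 arrays, so these 4 probes were not tested. Tek and Tie1 passed on 4 and 5 arrays, none of which had received IL-1α. The endothelial markers Pecam1, Cdh5, Kdr and Emcn were detected on all 12 arrays, so that endothelial transcripts were present in the labelled cartilage of every group.

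IL-1α lowered the expression of 5 of the 10 genes against untreated cartilage and raised none. The genes that fell were Pecam1, Cdh5, Emcn, Flt1 and Angpt2, and the fitted falls ran from 1.56-fold for Angpt2 to 2.65-fold for Flt1. The value for Flt1 rests in part on arrays where it was not above background, and without background correction its fall was 1.01 on the log2 scale against 1.18 for Pecam1. Across all 14317 genes tested, IL-1α lowered 15.0% and raised 15.1% at an adjusted p below 0.05 (limma with Benjamini-Hochberg adjustment). The median log2 fold change of the 10 genes was -0.50, against 0.01 for all genes. In whole-tissue RNA, fewer cells of a type and less RNA per cell cannot be told apart.

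Pecam1 (chromosome 11, 106654213 to 106715281, GRCm38.p6) gave log2 normalized intensities of 10.24 and 9.90 in batch 1 and 9.13 and 9.28 in batch 2 on the untreated arrays, 8.80, 8.98, 7.93 and 7.91 in the same order with IL-1α, and 9.65, 9.68, 9.06 and 9.19 with retinoic acid. Every IL-1α array lay below every untreated and every retinoic acid array, whereas the untreated and retinoic acid arrays overlapped. The mean fell from 9.64 ± 0.52 to 8.40 ± 0.57 (SD, n = 4 each), a log2 fold change of -1.23 (SE 0.13, adjusted p = 2.29e-05, 2.35-fold), and the exact two-sided permutation test gave p = 0.0286, the smallest that 4 arrays against 4 allow. A second Pecam1 probe gave 7.37, 7.43, 8.51 and 8.22 untreated and 6.73, 6.35, 7.13 and 7.08 with IL-1α, again without overlap (log2 fold change -1.06, adjusted p = 1.91e-04). With retinoic acid this probe gave 7.23, 6.97, 8.39 and 8.29, which overlapped the IL-1α values.

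VE-cadherin, the adhesion molecule of endothelial junctions, behaved similarly. Cdh5 (chromosome 8, 104101613 to 104144504) gave 8.04, 8.35, 8.47 and 8.13 untreated, 7.55, 7.53, 7.13 and 6.92 with IL-1α, and 7.94, 7.95, 8.65 and 8.75 with retinoic acid. The IL-1α arrays lay below all others, and the log2 fold change against untreated was -0.96 (SE 0.21, adjusted p = 0.00467, exact permutation p = 0.0286). The fall was 0.65 in batch 1 and 1.27 in batch 2 on the log2 scale, a difference between batches that did not pass the test (adjusted p = 0.134).

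Endomucin fell to a like extent. Emcn (chromosome 3, 137341062 to 137431069) gave 9.46, 9.55, 9.78 and 10.02 untreated, 8.49, 8.57, 8.79 and 8.81 with IL-1α, and 9.81, 9.79, 10.39 and 10.37 with retinoic acid. The IL-1α arrays were separated from both other groups by more than the whole range within any 1 group. The fall with IL-1α was 2.05-fold (log2 fold change -1.04, SE 0.12, adjusted p = 3.09e-05, exact permutation p = 0.0286), and was 0.97 in batch 1 and 1.10 in batch 2 on the log2 scale.

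Among the receptors, Flt1 fell and Kdr did not pass the test. Flt1 (chromosome 5, 147561604 to 147726438), the VEGF decoy receptor, gave 6.43, 6.71, 7.52 and 7.46 untreated, 5.16, 5.41, 6.10 and 5.84 with IL-1α, and 6.80, 6.44, 8.04 and 7.80 with retinoic acid. All IL-1α values lay below all others, and the batch 1 IL-1α arrays were not above background. The log2 fold change was -1.40 (SE 0.15, adjusted p = 2.78e-05, 2.65-fold), with an exact permutation p of 0.0286. Kdr (chromosome 5, 75932827 to 75979072), the main signalling receptor for VEGF-A, gave 7.18, 6.73, 6.18 and 6.08 untreated, 6.98, 6.89, 6.14 and 6.75 with IL-1α, and 6.78, 6.91, 5.90 and 6.48 with retinoic acid. The 3 groups overlapped throughout, and the difference between IL-1α and untreated was 0.15 (95% confidence interval -0.18 to 0.47, adjusted p = 0.495). This interval does not reach the falls measured for Pecam1, Cdh5, Emcn and Flt1, although the difference between these genes was not itself tested.

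The angiopoietin receptors were near the detection limit. Tek (chromosome 4, 94739086 to 94874976) was above background on the batch 2 arrays of the untreated group, at 5.20 and 5.50, and of the retinoic acid group, at 5.09 and 5.12, and on no IL-1α array. Its log2 fold change with IL-1α was -0.30 (adjusted p = 0.122), and none of its 3 treatment comparisons passed the test. Tie1 (chromosome 4, 118471191 to 118489849) gave 4.74, 5.27, 5.22 and 5.19 untreated, 4.74, 4.85, 4.66 and 4.77 with IL-1α, and 5.55, 5.08, 5.69 and 5.62 with retinoic acid. It was above background on 2 untreated, 0 IL-1α and 3 retinoic acid arrays, and its fall of 0.35 on the log2 scale with IL-1α did not pass the test (adjusted p = 0.111).

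Of the 3 secreted factors, Angpt2 passed the test as lower with IL-1α. Angpt2 (chromosome 8, 18690263 to 18741562) gave 9.64, 9.36, 10.64 and 10.75 untreated, 9.11, 9.21, 9.61 and 9.89 with IL-1α, and 9.56, 9.49, 11.21 and 11.03 with retinoic acid. The groups overlapped because batch 2 was brighter, but within each batch both IL-1α arrays lay below both untreated arrays. The fall was 1.56-fold (log2 fold change -0.64, SE 0.18, adjusted p = 0.0189), with an exact permutation p of 0.171 when batch was ignored. It was among the less stable calls, since the adjusted p rose to 0.0713 without the first batch 2 IL-1α array, 0.0606 without the second, 0.063 without the first batch 1 untreated array and 0.0588 without the second batch 2 untreated array. A second Angpt2 probe was above background only in batch 2, where it gave 7.21 and 7.34 untreated, 6.20 and 5.90 with IL-1α, and 7.81 and 7.51 with retinoic acid. Over both batches the log2 fold change of this probe with IL-1α was -0.65, which did not pass the test (adjusted p = 0.0733, exact permutation p = 0.543).

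Vegfa (chromosome 17, 46016993 to 46032377) gave 8.79, 8.57, 10.63 and 10.80 untreated, 8.29, 8.48, 10.71 and 10.60 with IL-1α, and 9.11, 9.07, 11.37 and 11.48 with retinoic acid. The batches separated far more than the treatments did. IL-1α and untreated cartilage differed by -0.18 (95% confidence interval -0.44 to 0.08, adjusted p = 0.29). Angpt1 (chromosome 15, 42424667 to 42676977) was above background in batch 2 alone, where it gave 6.11 and 5.82 untreated, 5.66 and 5.23 with IL-1α, and 5.79 and 5.48 with retinoic acid, and it did not pass the test in any of the 3 treatment comparisons over both batches. In the batch 2 arrays alone, an alternative added after the data were seen, Angpt1 was lower with IL-1α, at a log2 fold change of -0.52 (adjusted p = 0.0428).

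**Figure D1:**
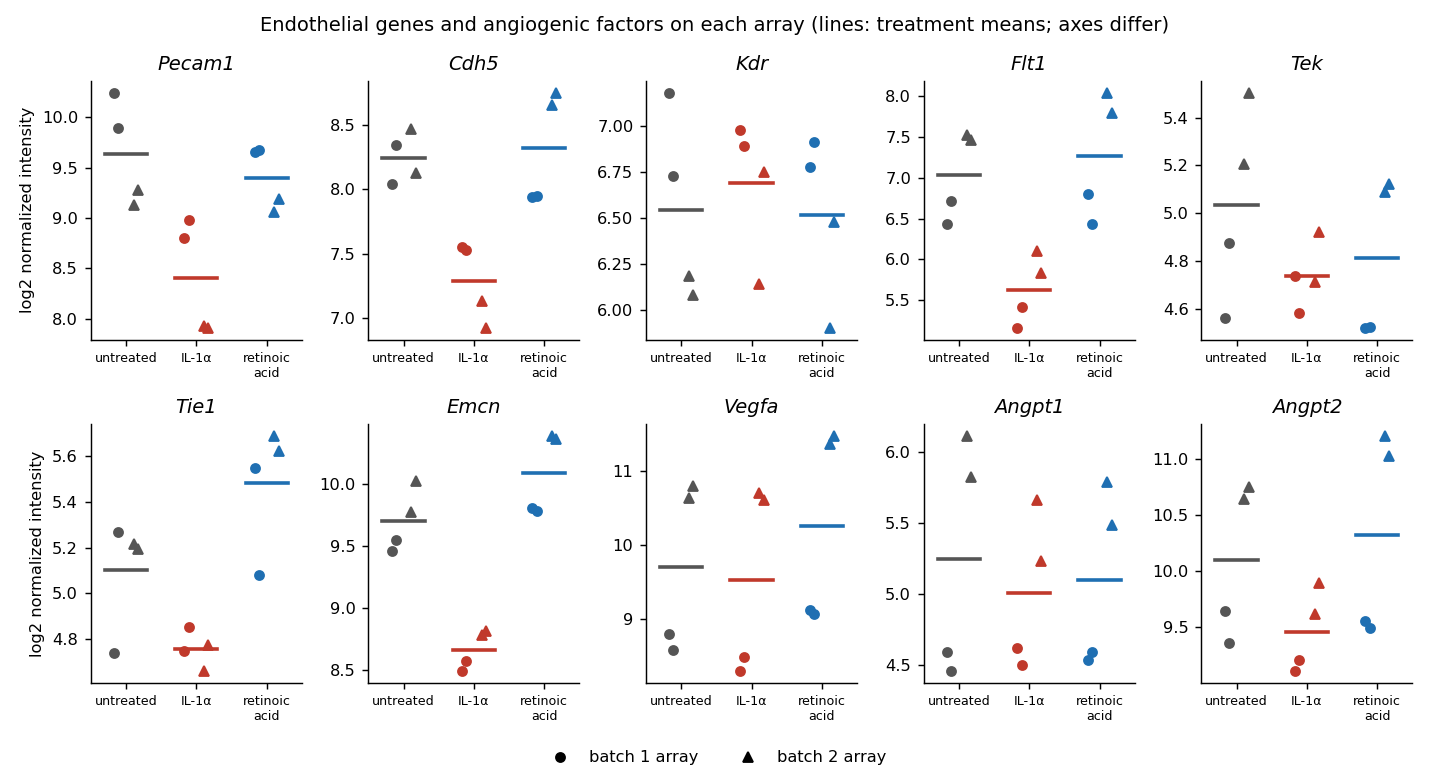
Log2 normalized intensity of the 10 genes on each of the 12 arrays, 1 panel per gene with its own vertical axis, for the untreated, IL-1α and retinoic acid groups; circles are batch 1 arrays, triangles batch 2 arrays and lines the means of 4 arrays. The IL-1α arrays of Pecam1, Cdh5, Flt1 and Emcn lie below every untreated array, whereas in Vegfa the batches lie apart by 2.21 on the log2 scale and the treatments by less.

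Retinoic acid raised 2 of the 10 genes against untreated cartilage, Emcn and Vegfa, and lowered none. Of all genes tested, 18.6% rose and 18.1% fell with retinoic acid, so that this count is close to that of genes in general. The median log2 fold change of the 10 genes was 0.15, against 0.01 for all genes. Vegfa rose 1.47-fold (log2 fold change 0.56, SE 0.12, adjusted p = 0.00288), by 0.41 in batch 1 and 0.71 in batch 2, and within each batch both retinoic acid arrays lay above both untreated arrays. The means were 9.70 ± 1.18 untreated and 10.26 ± 1.35 with retinoic acid (SD, n = 4 each), so that the rise was smaller than the spread across batches, and the exact permutation test that ignores batch gave p = 0.514.

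Emcn rose 1.31-fold with retinoic acid (log2 fold change 0.39, SE 0.12, adjusted p = 0.0189). Within each batch both retinoic acid arrays lay above both untreated arrays, and the groups overlapped across batches (exact permutation p = 0.114). The call was lost without the first batch 1 untreated array (adjusted p = 0.0504), the first batch 2 retinoic acid array (adjusted p = 0.0725) or the second (adjusted p = 0.0526). The remaining 8 genes did not pass the test. The 95% confidence interval of the log2 fold change was -0.53 to 0.04 for Pecam1, -0.38 to 0.54 for Cdh5, -0.35 to 0.30 for Kdr and -0.10 to 0.57 for Flt1. The log2 fold change was 0.38 for Tie1 (adjusted p = 0.0732, and 0.048 with treatment and batch alone in the model), 0.22 for Angpt2 (adjusted p = 0.382), -0.22 for Tek (adjusted p = 0.234) and -0.15 for Angpt1 (adjusted p = 0.424).

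Because Emcn and Vegfa were the genes that rose with retinoic acid, the sequence just before their transcription starts is shown. RefSeq promoter windows (GRCm38.p6) were at hand for 6 of the 10 genes, and not for Pecam1, Cdh5, Angpt1 and Angpt2. Both strands of the 250 bases before each start were searched for the retinoic acid receptor half-site AGGTCA, for AGGAAG, which many ETS factors of endothelial genes bind, and for ACGTG, the core of hypoxia response elements. Matches are in capitals, and a match on the opposite strand appears as its reverse complement. The Emcn sequence is chr3:137340828-137341061 on the plus strand and ends at the annotated gene start, and the Vegfa sequence is chr17:46032378-46032627 on the minus strand.
Emcn: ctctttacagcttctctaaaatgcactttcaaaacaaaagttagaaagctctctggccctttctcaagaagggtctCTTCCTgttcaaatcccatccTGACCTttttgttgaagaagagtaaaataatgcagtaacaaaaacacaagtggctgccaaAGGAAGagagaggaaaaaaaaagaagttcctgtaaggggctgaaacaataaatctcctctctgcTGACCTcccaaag
Vegfa: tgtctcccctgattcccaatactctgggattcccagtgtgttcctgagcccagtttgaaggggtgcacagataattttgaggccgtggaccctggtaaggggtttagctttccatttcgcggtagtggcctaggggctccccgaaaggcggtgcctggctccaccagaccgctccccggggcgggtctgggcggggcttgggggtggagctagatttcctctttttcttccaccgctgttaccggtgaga
The Emcn sequence held 2 matches to AGGTCA, 153 and 29 bases before the start of its window's transcript, and 2 to AGGAAG, 174 and 93 bases before it. None of the 3 motifs occurred in the Vegfa sequence shown. A second Vegfa window, not shown because it lies inside the annotated gene, held 1 match to ACGTG, 211 bases before its start, and none to the other motifs. Over all 32851 promoter windows of the same length, 14% held AGGTCA, 29.5% AGGAAG and 16.6% ACGTG, so that each is common, and a match of these letters is no evidence of binding.

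Against IL-1α, retinoic acid cultures had higher expression of 7 of the 10 genes and lower expression of none. Of all genes tested, 16.1% were higher and 16.4% lower in this comparison, and the medians were 0.80 for the 10 genes and -0.03 for all genes. The comparison shares its arrays with the 2 described above, which also share the untreated arrays, and so adds no independent evidence. Flt1 differed by 3.12-fold (log2 fold change 1.64, adjusted p = 3.08e-06), Emcn by 2.68-fold (1.42, adjusted p = 7.85e-07), Cdh5 by 2.05-fold (1.04, adjusted p = 0.00214) and Pecam1 by 1.98-fold (0.99, adjusted p = 7.41e-05). Without background correction the order of Flt1 and Emcn was the other way, at 1.21 and 1.39 on the log2 scale. In these 4 genes all retinoic acid arrays lay above all IL-1α arrays with the brighter probe (exact permutation p = 0.0286 for each). The second Pecam1 probe was also higher with retinoic acid (0.90, adjusted p = 4.41e-04), but its groups overlapped across batches (exact permutation p = 0.114).

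Tie1 differed between the 2 agents as well, and the retinoic acid arrays lay above the IL-1α arrays without overlap. As no IL-1α array was above background, the difference is given as a bound. It was at least 1.18-fold, computed against the lowest detected signal of each IL-1α array. The p-values (adjusted p = 0.00283, exact permutation p = 0.0286) belong to the fitted log2 fold change of 0.73, not to this bound. Tie1 passed the filter only through untreated and retinoic acid arrays, so these p-values add no support. At a detection p below 0.01 Tie1 was not tested, and 6 genes were called. The ligands Angpt2 (log2 fold change 0.87, adjusted p = 0.00272) and Vegfa (0.74, adjusted p = 4.18e-04) passed the test, with retinoic acid arrays above IL-1α arrays within each batch and groups that overlapped across batches. Kdr, Tek and Angpt1 did not pass the test, with log2 fold changes of -0.17, 0.07 and 0.10.

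**Figure D2:**
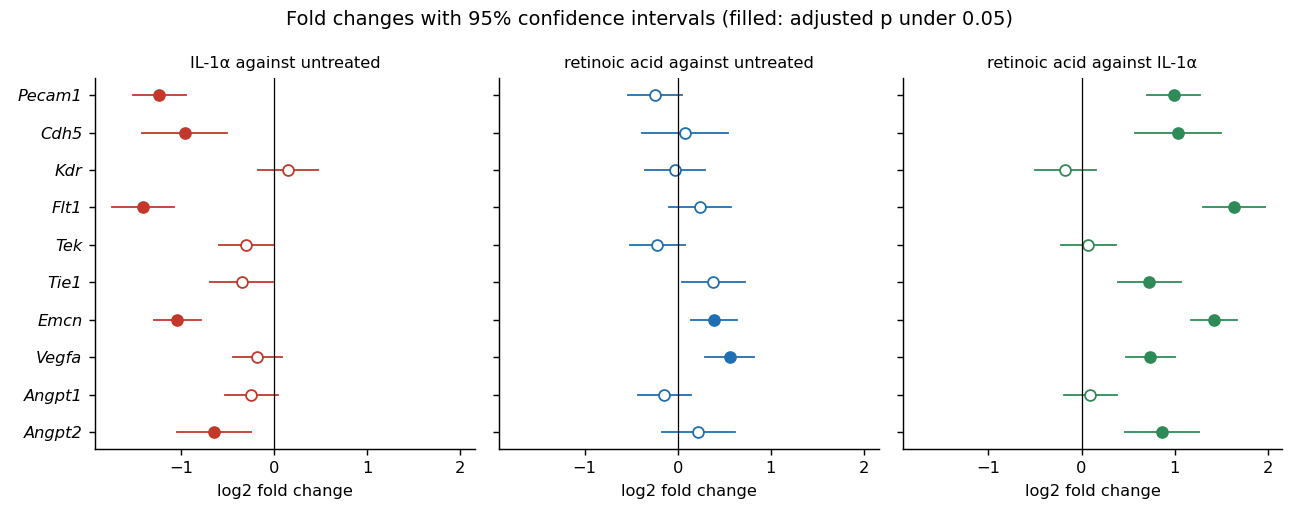
Log2 fold change of the 10 genes with its 95% confidence interval in each of the 3 comparisons, 1 panel per comparison; filled points have an adjusted p below 0.05 and open points do not. With IL-1α 5 genes are filled and to the left of 0, with retinoic acid Emcn and Vegfa are filled and to the right, and Kdr is open in all 3 panels.

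IL-1α also lowered other genes of endothelium. Of 28 further endothelial genes, 22 were measured, and IL-1α lowered 16 of them and raised 0 (median log2 fold change -0.63), against 15.0% and 15.1% of all genes. The largest falls were those of Stab1 and Stab2, scavenger receptors of sinusoidal endothelium and, for Stab1, of macrophages (-1.09 and -1.01, adjusted p = 2.30e-04 and 2.01e-04), Robo4, an endothelial guidance receptor (-1.02, adjusted p = 6.28e-04), and Egfl7, a secreted endothelial factor whose mean went from 9.61 to 8.61 (adjusted p = 1.32e-04). Stab2 was above background on no IL-1α array, and its fall amounts to at least 1.64-fold. It is among the 16 genes counted as lowered, but it passed the detection filter only through untreated and retinoic acid arrays. Its direction with IL-1α was therefore fixed beforehand, and its adjusted p, which belongs to the fitted change, is no support. Retinoic acid raised 9 of the 22 genes and lowered 2 (median 0.25), against 18.6% and 18.1% of all genes. The genes raised above 2-fold were Aqp1, a water channel of capillary endothelium and red cells (1.31, adjusted p = 2.93e-05), Eng, a coreceptor for TGF-β ligands (1.22, adjusted p = 3.63e-06), Stab1 (1.18, adjusted p = 6.68e-05) and Gpihbp1, which anchors lipoprotein lipase in capillaries (1.03, adjusted p = 4.10e-04). Vwf, a classical endothelial product, gave -0.03 with IL-1α (adjusted p = 0.925) and fell by 0.59 on the log2 scale with retinoic acid (adjusted p = 0.0159).

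Markers of other cell types moved with the treatments as well. For comparison with each marker list, IL-1α lowered 15.0% and raised 15.1% of all genes, and retinoic acid lowered 18.1% and raised 18.6%. The summed linear intensity of the 7 endothelial junction, surface and receptor genes was 2122 to 2464 (median 2287) on untreated arrays, 1017 to 1283 (median 1122) with IL-1α and 2214 to 2730 (median 2463) with retinoic acid. The higher sum with retinoic acid was seen in batch 2 only (2686 to 2730, against 2122 to 2269 untreated). In batch 1 it was 2214 to 2240, against 2305 to 2464 untreated. Of 8 mural cell genes measured, which mark the pericytes and smooth muscle around vessels, IL-1α lowered 6 and raised 0, and their sum was 3941 to 4350 untreated, 1996 to 2987 with IL-1α and 4252 to 5358 with retinoic acid. All 4 fibroblast genes measured fell with IL-1α, with sums of 2632 to 5248 untreated, 1592 to 1832 with IL-1α and 2283 to 5258 with retinoic acid. The sums are weighted towards bright genes. By count, retinoic acid lowered 3 of the 4 fibroblast genes and raised 1 (median -0.60). It lowered 3 of the 8 mural genes and raised 2 (median -0.29). Among mural markers Rgs5 was above background on no IL-1α array (at least 1.76-fold lower), Pdgfrb fell by 0.85 and Cspg4, which chondrocytes also express, gave 0.21 with IL-1α and fell by 2.34 with retinoic acid on the log2 scale. Rgs5 could pass the detection filter only through untreated and retinoic acid arrays, so a call of it as lower with IL-1α is no support. Chondrocyte markers changed as well, and the part of a change in cell makeup in the falls was not tested.

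No leukocyte or erythroid gene passed the test as lower with IL-1α. Of the 6 leukocyte genes measured, IL-1α raised 1 and lowered 0, retinoic acid raised 3 and lowered 0 (median 0.50), and the sum was 3160 to 3531 untreated, 2849 to 3651 with IL-1α and 2749 to 4863 with retinoic acid. With retinoic acid this sum was lower in batch 1 (2749 to 2838, against 3203 to 3215 untreated). In batch 2 it was higher (4429 to 4863, against 3160 to 3531 untreated). The leukocyte genes Ptprc and Fcer1g were above background on 0 arrays, as was the platelet gene Gp9. Pecam1 is also carried by leukocytes and platelets. Of the 2 platelet genes measured, Gp1bb fell by 0.67 on the log2 scale with IL-1α (adjusted p = 9.50e-04) and Ppbp gave 0.42 (adjusted p = 0.191). With retinoic acid Ppbp rose by 2.20 and Gp1bb fell by 0.61, and the part of leukocytes and platelets in the rise of Stab1 was not tested. The 4 erythroid genes measured did not pass the test against untreated with either agent, and Hbb-b1, the haemoglobin β chain, averaged 13.68 untreated and 13.86 with IL-1α, near the highest normalized value of 14.24. Of 8 chondrocyte genes measured, IL-1α lowered 6 and retinoic acid 8, with medians of -1.01 and -2.86, and their sum was 62550 to 74085 untreated, 35394 to 47196 with IL-1α and 10178 to 15446 with retinoic acid. Of 4 hypertrophic chondrocyte genes measured, IL-1α lowered 3 and raised 0 (median -2.05). Retinoic acid lowered 3 of these 4 and raised 1 (median -1.90). Lyve1 and Prox1, which define lymphatic endothelium, were above background on 0 arrays. Of the 2 lymphatic genes measured, Pdpn, which many stromal cells also express, rose by 0.70 with IL-1α (adjusted p = 3.43e-04) and fell by 1.35 with retinoic acid (adjusted p = 5.68e-07), and the receptor Flt4 gave 0.05 and -0.07 (adjusted p = 0.771 and 0.683).

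**Figure D3:**
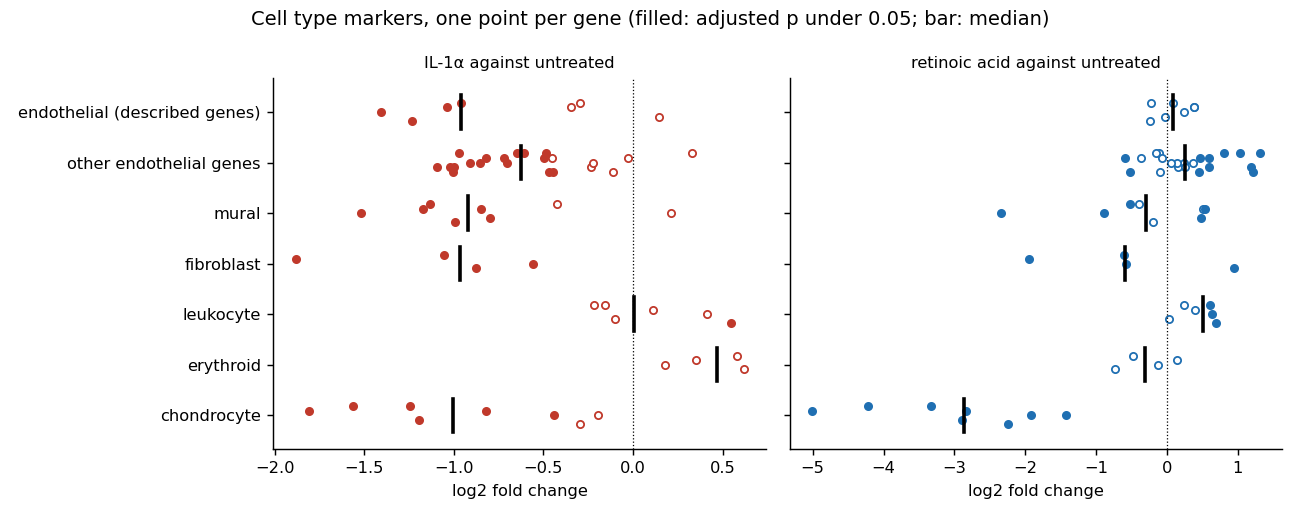
Log2 fold change of each measured marker gene against untreated with IL-1α (left) and retinoic acid (right), grouped by cell type; filled points have an adjusted p below 0.05 and black bars are list medians. With IL-1α the 22 further endothelial genes centre on -0.63 and the 4 erythroid genes lie above 0, and with retinoic acid the 8 chondrocyte genes centre on -2.86.

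Retinoic acid raised a wider set of secreted angiogenic factors and coreceptors. Of 32 such genes 24 were measured, and retinoic acid raised 12 and lowered 4, whereas IL-1α raised 2 and lowered 10. For comparison, retinoic acid raised 18.6% and lowered 18.1% of all genes, and IL-1α raised 15.1% and lowered 15.0%. Within the VEGF family, Vegfc, the lymphangiogenic ligand, rose by 1.27 with retinoic acid (adjusted p = 1.60e-04), placental growth factor (Pgf), a ligand of Flt1, rose by 0.99 (adjusted p = 5.63e-04), and the VEGF coreceptor Nrp1 rose by 1.16 (adjusted p = 1.04e-05), all on the log2 scale. Vegfb gave -0.01 (adjusted p = 0.951) and Figf, which encodes VEGF-D, fell by 0.45 (adjusted p = 0.0215). IL-1α gave -0.09 for Vegfc (adjusted p = 0.753) and -0.41 for Pgf (adjusted p = 0.0862), and lowered Nrp1 by 0.39 (adjusted p = 0.0334).

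The largest response in this set to retinoic acid was that of Angpt4, a further angiopoietin that binds Tie2. Its mean was 5.74 untreated, 5.11 with IL-1α and 8.88 with retinoic acid, a log2 fold change of 3.14 with retinoic acid (adjusted p = 1.67e-09) and of -0.63 with IL-1α (adjusted p = 0.00266). The lowest detected signal of the IL-1α arrays was 5.02 to 5.48. The IL-1α mean of Angpt4 therefore lies near background, and the size of its fall is uncertain. Midkine (Mdk), a heparin-binding growth factor, rose by 3.02 with retinoic acid (adjusted p = 1.02e-09) and changed by -1.27 with IL-1α (adjusted p = 5.26e-06), while its relative pleiotrophin (Ptn) was above background on no IL-1α array (at least 1.89-fold lower). Ptn could pass the detection filter only through untreated and retinoic acid arrays, so a call of it as lower with IL-1α is no support. Cxcl12, a chemokine of endothelial and stromal cells, rose by 1.83 and fell by 1.27, and Edn1, the vasoconstrictor endothelin-1, rose by 1.79 and fell by 0.72, with retinoic acid and IL-1α respectively. Notch4, an endothelial Notch receptor, fell by 1.05 with IL-1α, and Ramp2, a subunit of the adrenomedullin receptor, fell by 1.17. Angptl2 was the gene of this set that IL-1α raised above 2-fold (1.25, adjusted p = 6.04e-05), and it changed by -0.82 with retinoic acid (adjusted p = 8.95e-04).

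**Figure D4:**
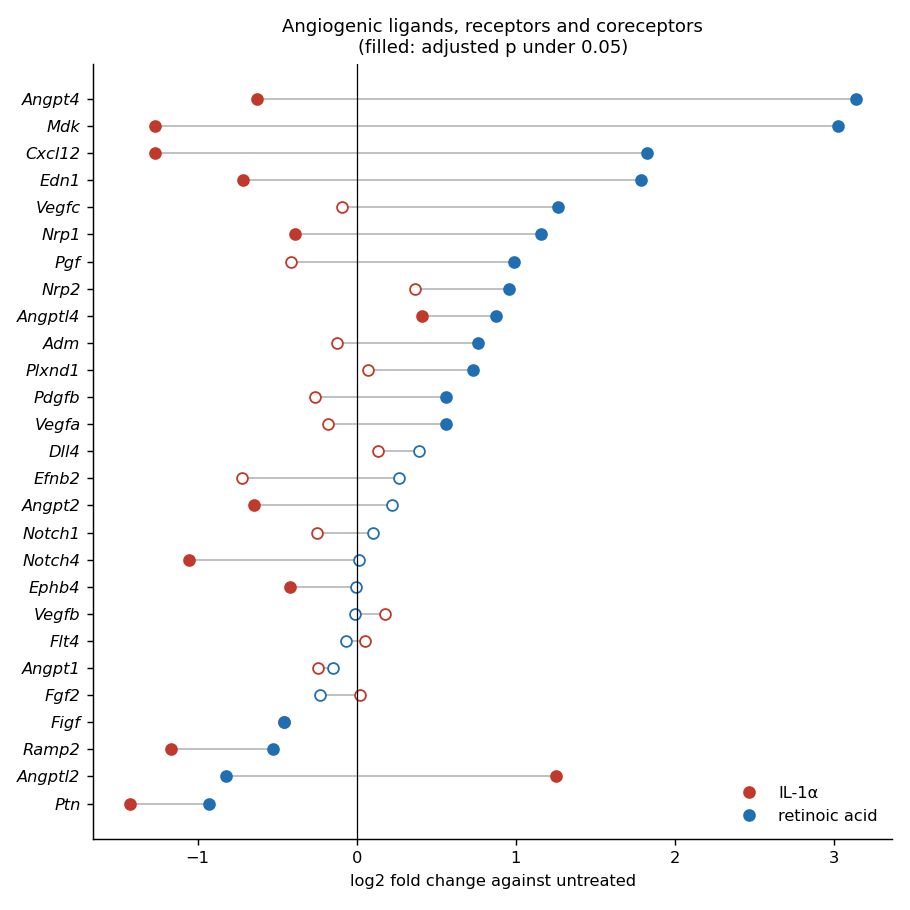
Log2 fold change against untreated with IL-1α (red) and retinoic acid (blue) for Vegfa, Angpt1, Angpt2 and the 24 measured angiogenic ligands, receptors and coreceptors, ordered by the retinoic acid value; filled points have an adjusted p below 0.05. Angpt4 and Mdk lie above 3 with retinoic acid and below 0 with IL-1α, and Angptl2 runs the other way.

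Genes of matrix proteins and inhibitors that restrain vessels were divided. Of 19 listed 12 were measured, retinoic acid raised 3 and lowered 6, and IL-1α raised 2 and lowered 4. Of all genes, retinoic acid raised 18.6% and lowered 18.1%, and IL-1α raised 15.1% and lowered 15.0%, so that the counts raised are near these shares. Tenomodulin (Tnmd), an antiangiogenic membrane protein of tendon and ligament, fell by 2.75 with IL-1α (adjusted p = 2.82e-08) and by 1.55 with retinoic acid (adjusted p = 9.69e-07). Sparc, a matrix glycoprotein, fell from a mean of 11.16 to 9.66 with IL-1α and to 9.15 with retinoic acid, Serpinf1, which encodes pigment epithelium-derived factor, fell by 1.29 with IL-1α, and Timp3, a metalloproteinase inhibitor that also blocks VEGFR-2, fell by 1.43 with retinoic acid. Adamts1 rose by 1.30 with retinoic acid (adjusted p = 0.001). Cxcl9, an interferon-induced chemokine detected on IL-1α arrays only, was at least 4.50-fold higher there than untreated. It is among the 2 genes counted as raised, but it passed the detection filter only through the IL-1α group. The direction was therefore fixed beforehand, and the adjusted p of 0.021, which belongs to the fitted change, is no support. Of 14 genes of the hypoxia response, which controls Vegfa, 9 were measured, with 2 raised and 2 lowered by retinoic acid and 3 lowered by IL-1α, and for retinoic acid these counts are close to the shares of all genes. Ndrg1 fell by 1.18 with retinoic acid (adjusted p = 2.20e-05), and Egln3 and Ddit4 rose by 0.70 and 0.75 (adjusted p = 0.00173 and 0.00811).

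The batches differed in 8 of the 10 genes, close to the 76.1% of all genes that differed between them. Vegfa was 2.21 higher in batch 2 on the log2 scale (adjusted p = 9.58e-12), Flt1 0.97, Angpt2 1.13 and Emcn 0.41 higher, and Kdr fell by 0.66 from batch 1 to batch 2. Cdh5 differed by 0.12 (adjusted p = 0.519). The Pecam1 probes disagreed, the brighter probe being lower in batch 2 (-0.79, adjusted p = 3.56e-06) and the other higher (0.92, adjusted p = 4.03e-06), although both fell with IL-1α in both batches.

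The response itself differed between batches for 2 genes, both in retinoic acid against IL-1α. Cdh5 differed by 0.40 in batch 1 and 1.67 in batch 2 (difference 1.27, adjusted p = 0.00334), and Angpt2 by 0.37 and 1.37 (difference 1.00, adjusted p = 0.0112). Of all genes, 8.91% showed such a difference for this comparison, 4.57% for IL-1α against untreated and 2.70% for retinoic acid against untreated. For IL-1α against untreated, Pecam1 fell by 1.18 in batch 1 and 1.29 in batch 2, and Emcn by 0.97 and 1.10. Flt1 fell by 1.52 in batch 2, and in batch 1 its IL-1α arrays were not above background, so that the size of the fall there is not known. For none of the 10 genes did the difference in this comparison pass the test with the brighter probe. The second Angpt2 probe, which was not above background in batch 1, differed by -1.16 between batches (adjusted p = 0.00866). With the arrays of 1 batch alone, an alternative added after the data were seen, Pecam1, Cdh5, Emcn and Flt1 were called lower with IL-1α in each batch.

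**Figure D5:**
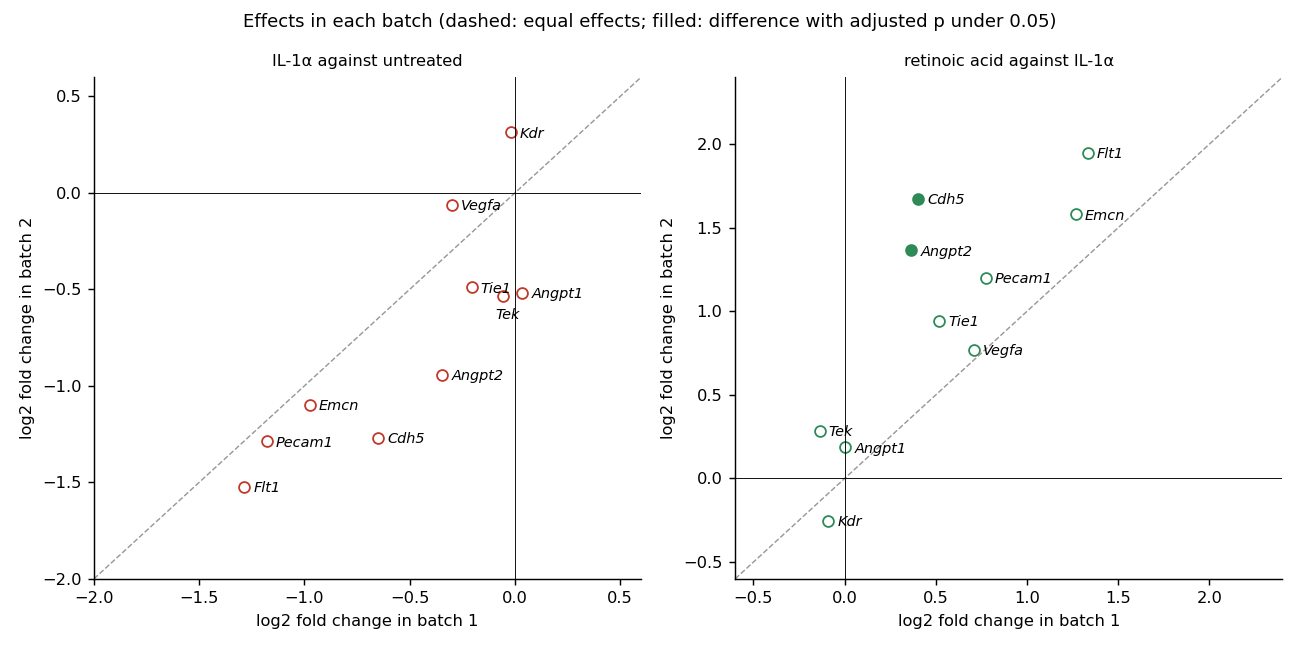
Log2 fold change in batch 2 against that in batch 1 for the 10 genes, for IL-1α against untreated (left) and retinoic acid against IL-1α (right); the dashed line marks equal effects, and filled points are genes whose effects differed with an adjusted p below 0.05. Pecam1 and Emcn lie near the line on the left, and Cdh5 and Angpt2 lie above it on the right, at 1.67 and 1.37 in batch 2 against 0.40 and 0.37 in batch 1.

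The 10 genes also varied together to different degrees across the 12 arrays once the mean of each batch and replicate number was subtracted. Flt1 and Emcn correlated at 0.983, Cdh5 and Angpt2 at 0.928, and Cdh5 and Flt1 at 0.926, whereas Kdr correlated negatively with each of the 9 others. These are descriptions over arrays that share treatments and carry no test. For Angpt2, Vegfa and Emcn, the 3 of the 10 genes with the highest mean signal, the most similar profiles among all genes were recorded in the same way. They were those of D930046M13Rik (0.978), A130092J06Rik (0.975) and Tspan9 (0.974) for Angpt2, of Adamts15 (0.99), Synpo2 (0.987) and Myo1e (0.984) for Vegfa, and of 5430437P03Rik (0.997), Cadm1 (0.993) and E130203B14Rik (0.993) for Emcn.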

How the data were processed

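RNA from 12 femoral head cartilage cultures had been hybridised to Illumina bead arrays. The table that the authors deposited holds raw, linear probe intensity values without correction, and a detection score per probe and array. The deposited score rises with intensity (Spearman 0.996 to 0.999 across arrays), so 1 minus the score was taken as the detection p. Bead summarisation software is not given in the sources used here, and 0 of the 24 value columns lacked a sample.

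All steps used R 4.3.3 and limma 3.58.1. The neqc function corrected the background from the detection p-values, applied quantile normalization and added an offset of 16 before log2, which shrinks fold changes of dim probes. Probes detected (p below 0.05) on at least 4 of 12 arrays were kept, leaving 18200 probes for 14317 symbols. The submitters' methods also used limma with quantile normalization and a factor for batch and replicate, and the model accordingly had treatment terms beside a 4-level factor combining batch with replicate number. Same-numbered arrays correlated between -0.108 and 0.391 in their deviations, so the numbers alone do not pair them. Models of treatment and batch, and of treatment by batch, compared the batches and the effects between them. Adjusted p-values are Benjamini-Hochberg values over all kept probes, called below 0.05. A gene with several kept probes was called by the brightest, with the others given beside it. Permutation tests were exact, two-sided and over 4 arrays against 4. Where a group was not above background, a bound was computed from the lowest detected signal of each array, 4.86 to 5.48 on the log2 scale. The number of arrays limits the precision.

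Members and gene lists were chosen with earlier results of these data known. Named beside the members were listed angiogenic, endothelial, antiangiogenic and hypoxia genes called with a fold above 2 against untreated, some further listed genes chosen after their values were seen (Pgf, Vegfb, Figf, Vwf, Egln3, Ddit4, Fcer1g, Gp1bb, Ppbp), the first genes of the marker lists, and the 3 closest profiles of the 3 brightest members. Functions were tested on simulated intensities. Symbols were matched to RefSeq (GRCm38.p6) for coordinates and promoter windows. Alternatives changed the model, background, normalization, offset, filter, threshold and arrays.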

Additional observations from a re-analysis of the deposited data

Results flagged for a closer look

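The untreated batch 1 replicate 1 array stood apart from the other 3 untreated arrays for Tie1, at 4.74 on the log2 scale, where the others lay between 5.19 and 5.27. It was 1 of 30 groups of 4 arrays examined in this way, and chance flags about 1 in 20. Neither this array nor the other batch 1 untreated array was above background for Tie1.

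Between the batches, the difference of retinoic acid from IL-1α was unequal for Cdh5, by 1.27 on the log2 scale, and for Angpt2, by 1.00, in the limma model of treatment by batch. The second Angpt2 probe, above background in batch 2 only, differed by 1.56 (adjusted p = 5.69e-04). Batch and mouse line cannot be told apart.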

How the results depend on the processing

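Over 25 alternatives, which did not all leave every gene to test, 688 of the 720 recomputed fold changes of the 10 genes kept their side of the threshold, with 15 changes of sign, each of a value that was not called; 24 lost the call, 8 gained one and 0 reversed a call. The falls of Pecam1, Cdh5 and Emcn with IL-1α were called under every alternative run. That of Flt1 was called under all that left it to test except the model with no replicate block (adjusted p = 0.052). Flt1 was not tested when detection on all 12 arrays was required. With no replicate block, which also leaves batch out of the model, the number of genes called was 3 for IL-1α, 0 for retinoic acid and 4 for retinoic acid against IL-1α, in place of 5, 2 and 7. Retinoic acid against untreated gave 0 genes when a fold above 1.5 was required. The arrays of 1 batch alone, alternatives chosen after seeing the data, gave 0 genes for retinoic acid, 4 for IL-1α and 4 for retinoic acid against IL-1α in batch 1, and 3, 7 and 7 in batch 2. Leaving out 1 array at a time gave 1 to 4 genes for retinoic acid, 4 to 6 for IL-1α, 7 to 7 for retinoic acid against IL-1α, 7 to 8 for the batches and 1 to 2 for a difference between batches. With treatment and batch alone in the model, Tie1 was called with retinoic acid (adjusted p = 0.048), which made 3 genes. The count of 4 for retinoic acid came without the second batch 1 retinoic acid array, when Flt1 (0.42, adjusted p = 0.0296) and Tie1 (0.58, adjusted p = 0.00857) were called as well. Tek with IL-1α was called without the first batch 1 IL-1α array (-0.43, adjusted p = 0.0418). The count of 1 for a difference between batches came without the second batch 1 IL-1α array, the second batch 1 retinoic acid array or the first batch 2 retinoic acid array. The batches differed in 5 genes when detection on all 12 arrays was required, which left fewer genes to test. Median scaling and normalization within each batch each gave 4 genes in place of 2 for a difference between batches; the cause was not tested. Angpt2 with IL-1α was also lost under median scaling (adjusted p = 0.0541) and with no filter (adjusted p = 0.0964). Tek, Tie1 and Angpt1 were detected on few arrays, which limits what could be called.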
